A study of Drosophila pseudoobscura and Drosophila ananassae and Drosophila yakuba with 13 samples.

Results

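The amylase genes described here are the 8 gene rows whose symbol begins with Amy in a pair of tables that compare testis with ovary, 5 of 11576 rows in Drosophila ananassae (Amy4N, Amy2E, Amy58, Amy35 and Amyc1) and 3 of 11946 rows in Drosophila pseudoobscura (Amy1, Amy2 and Amy3). The rows were picked by symbol with no cut on their expression, though the family was chosen with earlier results of these data known. The series measured gonad RNA by sequencing, to identify genes with sex-biased expression. Testes (2 libraries) and ovaries (2 libraries) of D. ananassae came from wild type flies of stock 14024-0371.13 kept at 25 °C, and testes (2 libraries) and ovaries (3 libraries) of D. pseudoobscura from wild type flies of stock 14011-0121.94 kept at 20 °C. All were virgin, Wolbachia-free adults aged 6 to 10 days, and the ducts attached to the gonads had been taken off. Species and growth temperature cannot be told apart in this design. The labels do not say whether libraries of a group came from separate flies, so the spread between libraries behind the p-values may be technical. Whether that spread was estimated for each gene or shared across genes is not stated, so a p-value may not reflect the spread of its own copy.

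Alpha-amylase is a secreted enzyme that cuts starch and glycogen into maltose and short glucose chains, and the maltases then release glucose from these products. In Drosophila it is known as a digestive enzyme of the larval and adult midgut, and its genes are often present in several copies per genome. Copies of a recent duplication can be near-identical in sequence, and reads of 50 bases from such copies may not be told apart. How the authors treated reads that match several copies is not given in the sources used here, so the values of single copies are uncertain.

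The values come from the authors' deposited tables, which give each gene a log2 fold change, an average expression over libraries and the result of an edgeR likelihood-ratio test, with no value per library. Depth per library is therefore unknown, and the spread between libraries of a copy could not be shown. A positive log2 fold change is read as higher in testis. The headers do not state this direction, and it was taken from the order of tissues in the name of each table and from genes of known gonad expression. Of the testis germline markers 1 of 19 had a row under its listed symbol in each species, TrxT, a thioredoxin of the male germline, and it was higher in testis. Of 13 ovary germline markers 4 had a row in D. ananassae and 5 in D. pseudoobscura, and all of these were higher in ovary. At an adjusted p under 0.05, 53.8% and 44.1% of all genes in these species were called higher in ovary. The shares called higher in testis were 31.7% and 29.6%, so these few markers are a limited check of the direction. None of the 13 follicle cell and egg shell markers had a row under its listed symbol.

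In D. ananassae, 3 of the 5 amylase copies were higher in testis than in ovary, Amy4N and Amy2E by large factors and Amy58 by a moderate one. Amy35 and Amyc1 did not pass the test. At an adjusted p under 0.05, 31.7% of all genes in this table were called higher in testis and 53.8% higher in ovary. None of the copies was called higher in ovary by the authors' edgeR test, and at an unadjusted p under 0.05 the number was also 0. Among the 1127 genes whose average lay within the range of the 5 copies, 35.7% were called higher in testis and 51.2% higher in ovary. The median log2 fold change of these 1127 genes was -0.82. The median log2 fold change of the copies was 1.60, against -0.93 over all genes of the authors' deposited table. Relative to that median gene the copies had a median of 2.52.

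Amy4N had an approximate level of 6.85 CPM in testis and 0.087 CPM in ovary. CPM here means a level per 1000000 of the summed averages of the table. The levels were computed from the deposited fold change and the rescaled average, and they carry no error of their own. The log2 fold change in the authors' deposited table was 6.30, a 78.7-fold difference (adjusted p = 2.26e-29 by edgeR). Amy2E stood at 2.50 CPM in testis and 0.072 CPM in ovary. Its log2 fold change was 5.12, or 34.9-fold, with an adjusted p of 7.31e-10 by edgeR in the authors' deposited table. In both copies the ovary level was a small fraction of the testis level. Folds of this size rest on a very low ovary level and depend on how the fit treats it. Neither was at the upper edge of the table: genes within 0.25 log2 units of the average of Amy4N reached 12.2, and 13.9% of these 316 genes had a higher fold. For Amy2E such genes reached 9.78, and 10.7% of 401 had a higher fold.

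Amy58 had 3.18 CPM in testis and 1.05 CPM in ovary. Its log2 fold change was 1.60, a 3.03-fold difference, with an adjusted p of 0.00631 by edgeR in the authors' deposited table. Of 354 genes within 0.25 log2 units of the average of Amy58, 31.4% had a higher fold. A standard error can be derived from a fold and its test statistic where the fold is moderate, here an absolute log2 fold change under 3, and it was 0.57 for Amy58. Amy35 had 2.40 CPM in testis and 1.36 CPM in ovary, a log2 fold change of 0.82 with a derived error of 0.52 and an adjusted p of 0.131 by edgeR in the authors' deposited table. Its approximate 95% interval ran from -0.20 to 1.84. Relative to the median gene Amy35 stood at 1.75 with an interval of 0.72 to 2.77, so whether the interval holds 0 depends on the scaling. Amy58 and Amy35 thus lay on either side of the threshold with intervals that overlap, that of Amy58 being 0.48 to 2.72. The difference between these copies was not tested.

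Amyc1 was the copy nearest to equality. It had 3.60 CPM in testis and 4.48 CPM in ovary, and a log2 fold change of -0.32 with a derived error of 0.29 and an adjusted p of 0.301 by edgeR in the authors' deposited table. The approximate 95% interval was -0.88 to 0.25 around the deposited value. Relative to the median gene its value turned positive, at 0.61 with an interval of 0.042 to 1.18, so the sign depends on the scaling and no direction is given for it.

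**Figure D1:**
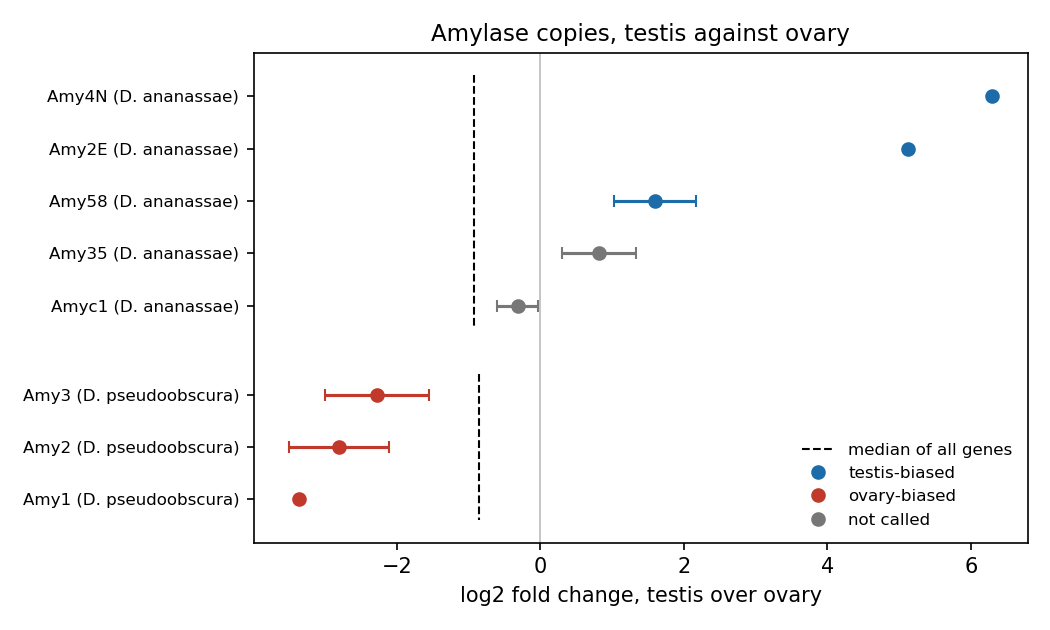
Log2 fold change of testis over ovary (horizontal axis) for the 8 amylase copies, D. ananassae above D. pseudoobscura. Points are the deposited values, bars are 1 derived standard error on each side where the absolute log2 fold change was under 3, dashed lines mark the median of all genes of each table, and colour gives the call at an adjusted p under 0.05. The D. ananassae copies run from -0.32 to 6.30 and the D. pseudoobscura copies from -3.37 to -2.27.

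The mix of copies in the amylase reads of D. ananassae was computed for each tissue from the levels above. Amyc1 accounted for 19.4% of the amylase reads in testis and 63.5% in ovary. Amy4N accounted for 37.0% of amylase reads in testis and 1.23% in ovary. Amy2E, at 13.5% in testis and 1.02% in ovary, likewise held the larger share in testis. Amy58 and Amy35 held 17.2% and 13.0% of the testis reads, against 14.9% and 19.3% of the ovary reads. These are shares of reads with no correction for transcript length, so they do not rank the copies. A share also moves with the levels of the other copies, so it does not give the direction of a copy between tissues. Amy35 held the smaller share in testis, at levels of 2.40 CPM in testis and 1.36 CPM in ovary. Summed over the copies, the approximate level was 18.5 CPM in testis and 7.04 CPM in ovary, a ratio of 2.63.

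In D. pseudoobscura all 3 copies were lower in testis than in ovary, and their folds lay close together. At an adjusted p under 0.05, 44.1% of all genes in this table were called higher in ovary and 29.6% higher in testis. None of the copies was called higher in testis by the authors' edgeR test, and at an unadjusted p under 0.05 the number was also 0. Among the 1045 genes with an average in the range of the 3 copies, 44.2% were called higher in ovary and 42.6% higher in testis. The median log2 fold change of these 1045 genes was -0.12, nearer to equality than that of all genes. The median log2 fold change of the copies was -2.80 and that of all genes -0.85 in the authors' deposited table, which puts the copies at a median of -1.96 relative to the median gene.

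Amy1 had an approximate level of 0.651 CPM in testis and 6.71 CPM in ovary. The log2 fold change was -3.37, which is 10.3-fold lower in testis, with an adjusted p of 4.37e-06 by edgeR in the authors' deposited table. Amy2 had 0.65 CPM in testis and 4.54 CPM in ovary. Its log2 fold change was -2.80 with a derived error of 0.70, or 6.99-fold lower in testis, and the adjusted p was 0.000102 by edgeR in the authors' deposited table. Amy3 had 0.436 CPM in testis and 2.11 CPM in ovary, with a log2 fold change of -2.27, a derived error of 0.72 and an adjusted p of 0.00253 by edgeR in the authors' deposited table. The difference for Amy3 was 4.83-fold. The ovary level was the higher one for each copy. Many genes within 0.25 log2 units of the average of a copy had a lower fold. Their share was 32.8% for Amy1, 35.8% for Amy2 and 44.4% for Amy3. Neighbouring folds, -3.37, -2.80 and -2.27 in the authors' deposited table, differed by less than 1 derived error. That does not show that the copies are expressed alike, because the copies may share reads and their difference was not tested.

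Of the amylase reads of D. pseudoobscura, Amy1 accounted for 37.5% in testis and 50.2% in ovary. Amy2 accounted for 37.4% in testis and 34.0% in ovary, and Amy3 for 25.1% in testis and 15.8% in ovary. Amy2 and Amy3 thus held larger shares in testis although the level of each was lower there. The summed level was 1.74 CPM in testis and 13.4 CPM in ovary, 7.69-fold lower in testis.

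**Figure D2:**
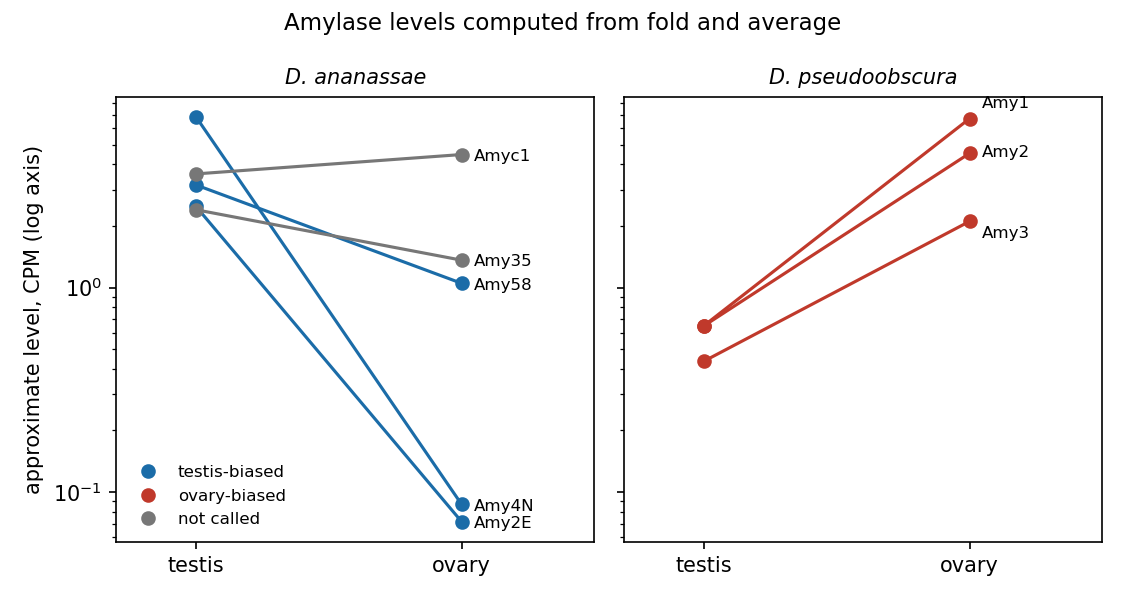
Approximate level of each amylase copy in CPM (vertical log axis) in testis and ovary, computed from the deposited fold and average and not divided by transcript length, so that the slope of a line can be read but the order of copies cannot. Amy4N and Amy2E are at 0.087 and 0.072 CPM in the ovary of D. ananassae, and Amy1, Amy2 and Amy3 are higher in the ovary of D. pseudoobscura. Colour gives the call, and the points carry no error because no values per library were used.

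Where amylase copies were called, the direction was towards testis in D. ananassae and towards ovary in D. pseudoobscura. Of all genes, 31.7% were called higher in testis in D. ananassae and 44.1% higher in ovary in D. pseudoobscura. On the log2 scale of the authors' deposited tables, the copies of D. ananassae ran from -0.32 to 6.30. Those of D. pseudoobscura ran from -3.37 to -2.27, with no overlap. Among the folds of all genes, Amyc1 stood at the 57.5 percentile in D. ananassae and Amy3 at the 35.4 percentile in D. pseudoobscura. Large parts of each table thus lay above Amyc1 or below Amy3, and copies may share reads, so the lack of overlap is not particular to amylase. Relative to each table's median gene, the least testis-biased copy of D. ananassae was Amyc1 at 0.61, and the least ovary-biased copy of D. pseudoobscura was Amy3 at -1.43. The difference between species was not tested, since no values per library were used and the tables do not say which copies correspond. No symbol beginning with Amy occurred in both tables. A row under the symbol Amyrel, a diverged relative of amylase in D. melanogaster, was in neither table, and genes listed only by identifier were not searched.

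All 8 copies had low expression. Their averages lay between the 12.1 and 21.8 percentiles of all genes in D. ananassae, and between the 12.5 and 21.2 percentiles in D. pseudoobscura. The median gene had 33.1 CPM in D. ananassae and 29.4 CPM in D. pseudoobscura. No copy averaged more than 4.04 CPM in D. ananassae or 4.29 CPM in D. pseudoobscura. In bulk gonads a low level in few cells and a lower level in many cells cannot be told apart.

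Derived errors give the approximate precision of a fold, and in D. pseudoobscura similar errors were seen at higher expression. In D. pseudoobscura the muscle marker Tm1, at an average of 502 CPM, had 0.68, and the ovary marker hb, at 67.2 CPM, had 0.66. In D. ananassae the ovary marker rhi, at 69.4 CPM, had 0.27. Among genes with an average in the range of the copies and an absolute log2 fold change under 3, the derived error had a median of 0.34 in D. ananassae (558 genes, interquartile range 0.32 to 0.41) and 0.68 in D. pseudoobscura (267 genes, 0.66 to 0.71). Amy58 and Amy35, at 0.57 and 0.52, were above that interquartile range in D. ananassae, while Amyc1, at 0.29, was below it. With these errors a call needed a log2 fold change of about 1.06 for Amy35 and 0.59 for Amyc1. Amy2 and Amy3, at 0.70 and 0.72, were within and just above the range for their table, where a call of Amy2 needed about 1.45.

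**Figure D3:**
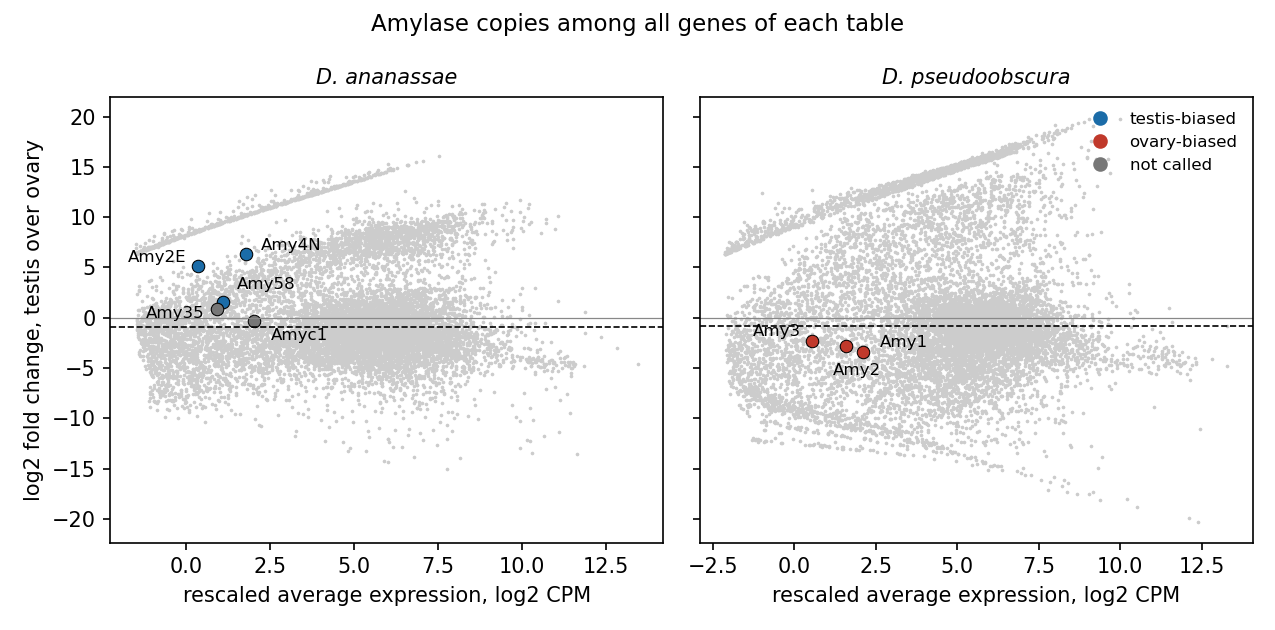
Log2 fold change of testis over ovary (vertical axis) against rescaled log2 average expression in CPM (horizontal axis) for all genes (grey) and the amylase copies (coloured by call), with D. ananassae on the left and D. pseudoobscura on the right. The copies sit in the low-expression part of each plot, with averages of at most 4.04 and 4.29 CPM, and Amy4N and Amy2E lie below the upper line of grey points. Dashed lines mark the median fold of all genes.

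The maltases act after amylase in starch digestion, and those called in D. ananassae were higher in ovary, opposite to the amylase copies called there. Of the 32 genes listed for starch and sugar digestion, uptake and sensing, 5 had a row under their listed symbols in each species, and all were maltase genes. In D. ananassae 4 of the 5 were higher in ovary, as were 53.8% of all genes, 0 were called higher in testis by edgeR (0 also at an unadjusted p under 0.05), and the median log2 fold change was -4.01 in the authors' deposited table. Mal-A5, at 0.733 CPM in testis and 257.1 CPM in ovary, had a log2 fold change of -8.45 in the authors' deposited table. Mal-B1, at 7.55 in the authors' deposited table, was not called, with an adjusted p of 0.359 by edgeR and a test statistic of 0.934, against 129.0 for Amy4N with a smaller fold. In D. pseudoobscura 4 of 5 were higher in ovary and 1 in testis, beside 44.1% and 29.6% of all genes, at a median log2 fold change of -6.71 in the authors' deposited table. That gene was Mal-B1, at 2.28 with an adjusted p of 0.0202 by edgeR in the authors' deposited table. The amylase folds of D. pseudoobscura had the sign of the other 4 maltases, and each was smaller than that of Mal-A1, at -3.97 in the authors' deposited table.

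**Figure D4:**
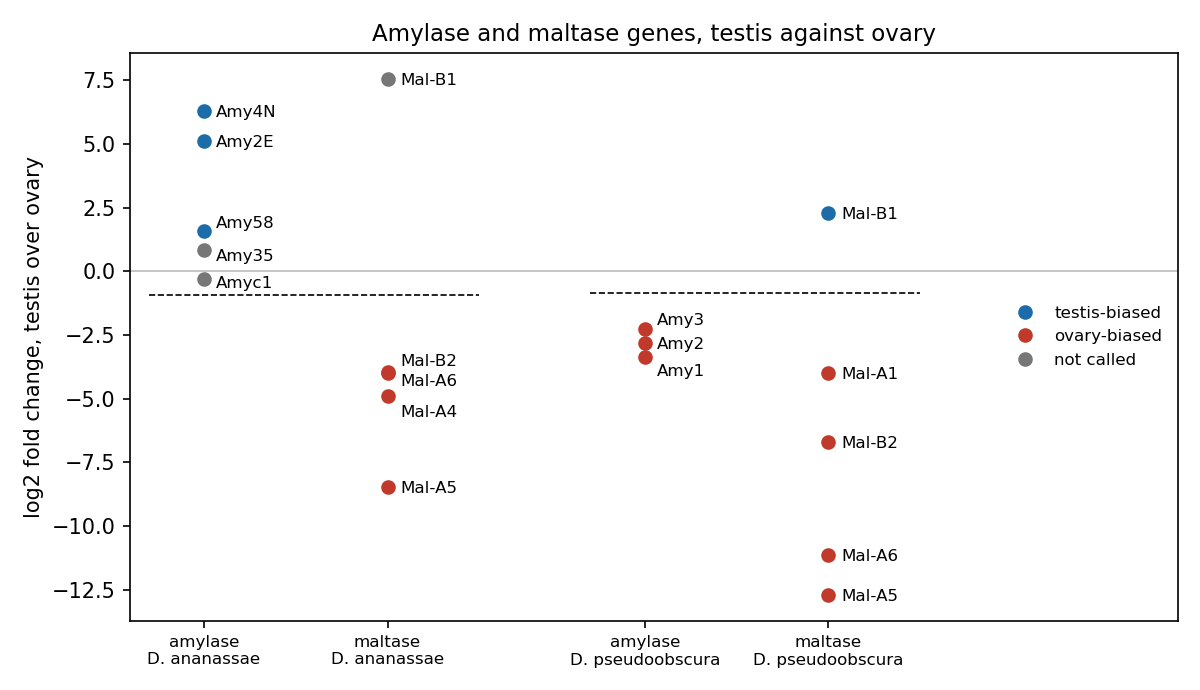
Log2 fold change of testis over ovary (vertical axis) for the amylase copies and the maltase genes of each species, with a point per gene coloured by call and dashed lines at the median of all genes. In D. ananassae 3 amylase copies lie above 0 with a call and 4 maltases lie below it, and in D. pseudoobscura all 3 amylase copies and 4 of 5 maltases lie below 0. Mal-B1 of D. ananassae, the highest point, was not called.

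Markers of other tissues were available mainly in D. pseudoobscura. Of 19 midgut markers none had a row under its listed symbol in D. ananassae and 2 had one in D. pseudoobscura, with a summed level of 0.922 CPM in testis and 9.80 CPM in ovary. These were the maltase gene Mal-A1, which is also among the maltases above, and lab, a homeotic gene of the midgut, which was not called (log2 fold change -0.24, adjusted p = 0.854 by edgeR in the authors' deposited table). Of 17 muscle markers 9 had a row in D. pseudoobscura. Of these, 7 were higher in ovary and 1 in testis (44.1% and 29.6% of all genes). The muscle markers summed to 101.0 CPM in testis and 1447 CPM in ovary, of which Tm1 alone had 96.6 and 772 CPM. All 5 accessory gland markers with a row, of 11 listed, were higher in testis (29.6% of all genes), at a summed 8.81 CPM in testis and 0.059 CPM in ovary. No muscle, accessory gland or fat body marker had a row under its listed symbol in D. ananassae, and no fat body marker had one in D. pseudoobscura. The part of other tissues in the amylase values was not tested.

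The genes most like the median amylase copy were sought among genes with a symbol, by distance in log2 fold change and log2 average over this 1 contrast. In D. ananassae, of 205 genes, they were bru-3, which encodes an RNA-binding protein, at a distance of 1.21, the Wnt ligand gene wg at 1.45 and the rhomboid protease gene rho at 1.67. In D. pseudoobscura, of 257 genes, they were the gustatory receptor genes Gr66a at a distance of 0.38, Gr64a at 0.42 and Gr64e at 1.06. Of these, bru-3 was not called (adjusted p = 0.312 by edgeR in the authors' deposited table), wg and rho were higher in testis, and the 3 receptor genes were higher in ovary.

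With Bonferroni adjustment over all genes, the calls of Amy4N and Amy2E in D. ananassae and of Amy1 in D. pseudoobscura were kept, and those of Amy58, Amy2 and Amy3 were lost. Under that rule 2 of 5 copies were higher in testis in D. ananassae, where 25.1% of all genes were, and 1 of 3 was higher in ovary in D. pseudoobscura, where 27.4% of all genes were.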

How the data were processed

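RNA of testes and ovaries was sequenced as single reads of 50 bases from polyadenylated RNA, per the labels' protocols. The submitters' processing notes name edgeR, HTSeq 0.5.4p3, Bowtie2 2.1.0, and Cuffdiff 2.1.0 with Cufflinks 2.1.0. They state neither the genome build nor how genes were filtered and libraries normalized. Per the file headers, the authors deposited for each gene a log2 fold change, a log2 average, a likelihood-ratio statistic (a score) and a p-value with its false discovery rate over the table, called adjusted p. The deposited averages are headed as log CPM, but their linear values summed to 6686862 and 8090737 times 1000000 in D. ananassae and D. pseudoobscura, so they were rescaled to a total of 1000000 per table.

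Testis and ovary levels were solved from the fold and the average, read as the mean over libraries. The error of a fold was derived as its size over the square root of the test statistic. This is an approximation, given only for an absolute log2 fold change under 3, and intervals are 1.96 errors on each side. Members, gene lists and tests were chosen with earlier results of these data known. Genes named were all amylase rows, all measured members of the starch and sugar list, the 3 nearest symbols per species and a few marker genes. Lists were matched by listed symbol only. Of the 3 D. pseudoobscura copies, 0 matched a symbol in the RefSeq table used, so no coordinates, lengths or sequences are given. Since 2 sequencer models were used and no label ties a library to either, batches could not be checked. D. yakuba was not analysed here. Depth is unknown, so no counting interval was computed. Computations ran in Python 3.11.15 with scipy 1.17.1, pandas 2.3.3, numpy 2.4.6 and, for figures, matplotlib 3.10.9.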

Additional observations from a re-analysis of the deposited data

How the results depend on the processing

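Alternatives were Bonferroni adjustment, an adjusted p under 0.01, a minimum of 2-fold, folds centred on the median gene with a minimum of 2-fold, and adjustment over genes above the lower quartile of average expression. The count of amylase copies called kept within 1.5 times its value except under Bonferroni adjustment, with 1 copy higher in ovary in D. pseudoobscura. Bonferroni adjustment also left 3279 genes higher in ovary in that species and 0 of the starch and sugar genes higher in testis, and those called higher in testis also numbered 0 at an adjusted p under 0.01. Centring reversed the sign of Amyc1 to 0.61. The centred setting keeps the adjusted p of the deposited test, which is against equal levels and not against the median gene, so centring could add no call. All 8 copies lie under the lower quartile of average expression, so that filter could give no amylase value. It left 2 starch and sugar genes higher in ovary in each species and 0 higher in testis in D. pseudoobscura. Adjustment over genes above the 10 percentile of average expression, chosen after seeing the data, kept all amylase calls and left 2 starch and sugar genes higher in ovary in D. ananassae. The starch and sugar genes lost under these filters had averages below the cut and were themselves not tested. They were Mal-A4 and Mal-A6 in D. ananassae, under either filter. In D. pseudoobscura they were Mal-A6, Mal-A1 and Mal-B1, under the lower quartile filter only. Divided by 1000000 in place of rescaling, the linear deposited averages of the copies were 8.58 to 27.0 in D. ananassae and 11.7 to 34.7 in D. pseudoobscura, in a unit the files do not state. With equal weight of the tissues, Amy1 of D. pseudoobscura stood at 0.758 CPM in testis and 7.82 CPM in ovary. No paired analysis was possible because the tables carry no values per library, and leaving out a library was not possible for the same reason.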
